A study of Mus musculus with 6 samples.

Results

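The Gimap genes encode GTPases of the immunity-associated protein family, and in the mouse they lie side by side in a single cluster on chromosome 6. Their levels were followed in bEnd.3 cells, an endothelial line from mouse brain immortalised with polyoma middle T antigen, that carried either a miR-423-5p mimic or a control mimic. A mimic is a synthetic RNA that acts in place of the mature microRNA. The members were the 7 rows of the deposited gene table named Gimap1, Gimap4, Gimap5, Gimap6, Gimap7, Gimap8 and Gimap9, of 30768 genes in all. The cluster was picked because its genes differed between these same libraries, so the differences of the members are given as a description, with no test. Of the 7 members, 6 had enough reads to be among the 18103 genes tested, and Gimap7 did not.

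The series holds 6 libraries of polyadenylated RNA, 3 of cells labelled as overexpressing miR-423-5p and 3 of control cells. All come from the same established line, and the sources used here do not give the dose of the mimics or the time after their delivery. Separate cultures are not stated for replicates in the labels, so p-values measure only the spread between these libraries, which may be technical. Libraries held 63217696 to 78456344 counts with miR-423-5p and 64561989 to 69250575 counts with the control mimic. A count of 0 in a library allows up to 3 counts, or 0.0396 to 0.0508 CPM (counts scaled to a common TMM-adjusted library size), for counting error only. Mature miR-423-5p was not measured in these libraries, so the labels were not checked against it. Defining endothelial genes were present in every library, with Pecam1 at 1004 to 1108 CPM with miR-423-5p and 487 to 564 CPM in controls, while Cldn5, the main claudin of brain endothelium, was near the floor at 0.135 to 0.660 CPM with miR-423-5p and 0.110 to 0.206 CPM in controls. Control library 3 stood apart through myeloid transcripts: without the lysosomal gene Cd68, the 9 other myeloid markers summed to 10.9 to 12.8 CPM with miR-423-5p, to 6.81 and 5.49 CPM in control libraries 1 and 2 and to 246 CPM in control library 3. Results on the Gimap genes are therefore also given without that library.

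Gimap proteins share a guanine-nucleotide-binding domain related to that of the septins and dynamins, and several are anchored in intracellular membranes. They are best known from lymphocytes, where they govern survival, and they are also expressed in endothelium. In mice, loss of Gimap5 shortens the life of T cells and disturbs the liver, where the protein is needed to keep sinusoidal endothelial cells in their specialised state, while Gimap1 is needed for the survival of mature T and B cells. Gimap6 binds the ATG8 protein Gabarapl2 and acts in autophagy, and Gimap4 speeds the death of T cells. A microRNA pairs through its seed, bases 2 to 8, with the 3' untranslated region of messenger RNAs and lowers them.

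The sequence of the microRNA is shown with its single match of 6 bases or more in the longest 3' untranslated regions of the members. The mature mouse sequence, from RefSeq on GRCm38.p6 at chr11:77078122-77078144 on the minus strand, is printed with its seed in capitals. Beneath it stands the match in Gimap8, from the GENCODE M21 transcripts, with the 7 bases that pair with the seed in capitals.
miR-423-5p: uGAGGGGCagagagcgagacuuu
Gimap8 3' untranslated region: gtacttgaatGCCCCTCgcatcaccaaa
The longest 3' untranslated regions of Gimap1, Gimap4, Gimap5, Gimap6, Gimap7 and Gimap9, which are 273 to 2822 bases long, held no match of 6 bases or more. Over 21024 mouse genes with an annotated region (median length 960 bases), 17.2% held a match of 7 or 8 bases and 32.3% one of 6 bases or more, beside which 1 of 7 members is not a result about the cluster. Gimap3, a near-copy of Gimap5 outside the chosen members, held 4 matches of 6 bases or more, 2 of them of 7 bases. Gimap8, the only member with a match, was among the members that were higher with miR-423-5p.

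With miR-423-5p, messenger RNA of the Gimap cluster was 2.24-fold as abundant as in controls by TMM-adjusted CPM. Summed over the 7 members it came to 540, 565 and 568 CPM with miR-423-5p, against 295, 235 and 216 CPM in controls (557 ± 15.3 and 249 ± 41.4 CPM, SD, n = 3 each). All 3 miR-423-5p libraries lay above all 3 control libraries. Of the 6 tested members, 5 were called higher with miR-423-5p (edgeR's quasi-likelihood test, Benjamini-Hochberg adjusted p under 0.05 over all genes) and 0 lower, where 9.09% of all tested genes were called higher and 7.21% lower. In all 6, every miR-423-5p library was above every control library by TMM-adjusted CPM, as held for 18.8% of all tested genes. The members were chosen on this contrast, so these counts are not evidence about the cluster. Their log2 fold changes ran from 0.39 to 1.59 with a median of 1.16, beside a median of -0.02 over all tested genes. Without control library 3, the same number of members, 5, was called higher, with a median of 1.10. In bulk RNA of this kind, a change in the share of cells of a type and a change in RNA per cell cannot be told apart.

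**Figure D1:**
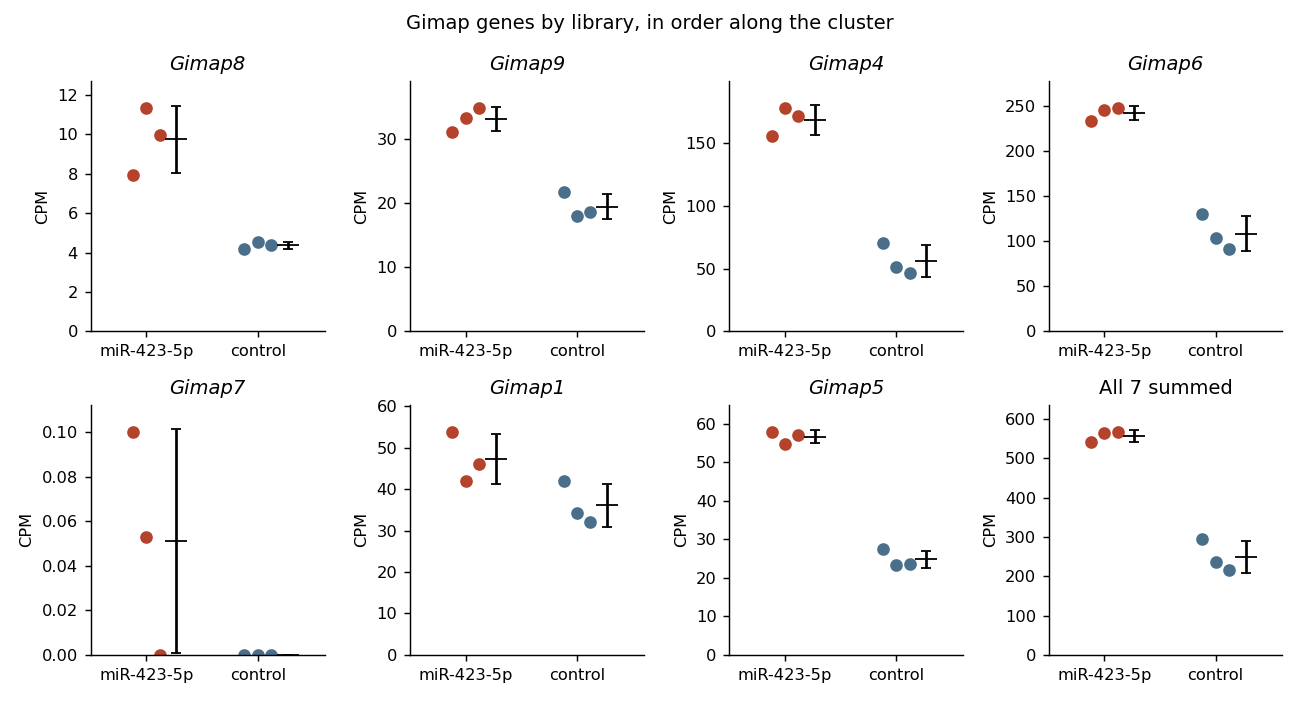
CPM of each Gimap member, and of all 7 summed, in each library (points), with the mean and SD of each group (black bars), miR-423-5p left of control; every panel starts at 0 and has its own scale. The groups do not overlap for any member but Gimap7, whose highest value is 0.1002 CPM.

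Gimap4 differed most. It had 156, 178 and 172 CPM with miR-423-5p, against 70.4, 51.2 and 46.3 CPM in controls. The lowest miR-423-5p library was above the highest control library by a wide margin, and control 1 was the highest of the controls. The fold was 3.01 (log2 fold change 1.59 ± 0.16, SE). Gimap4 lies at chr6:48684549-48692060 on the plus strand of GRCm38, between Gimap9 and Gimap6.

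Gimap6, the most abundant member by CPM, stands next to it on the minus strand (chr6:48701582-48708225) and is the only member transcribed in that direction. It had 233, 245 and 248 CPM with miR-423-5p, against 130, 104 and 91.2 CPM in controls. The groups did not overlap, and control 1 was again the highest control. The fold was 2.24 (log2 fold change 1.16 ± 0.13, SE).

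Gimap5, the last member in the row (chr6:48746197-48754210, plus strand), had the smallest spread relative to its difference. It had 57.9, 54.7 and 57.0 CPM with miR-423-5p, against 27.4, 23.4 and 23.6 CPM in controls. No control reached the level of any miR-423-5p library, and the fold was 2.28 (log2 fold change 1.19 ± 0.09, SE). Its near-copy Gimap3 lies on the minus strand, with its nearer end 10.2 kb beyond Gimap5. Their coding sequences were identical at 90.4% of aligned bases, with a longest identical stretch of 140 bases, a little under the read length of 150 bases. Gimap3 had counts of 0, 0 and 5 with miR-423-5p and of 0 in every control library, so nearly all reads of the pair were counted to Gimap5. The sources used here do not give how reads that fit both genes were counted. Between all other pairs of the family the longest identical stretch was 11 to 17 bases.

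Gimap8, at the start of the row (chr6:48647234-48660875, plus strand), encodes the largest protein, of 688 residues where the other members have 291 to 328, and carries several GTPase domains. It was the least abundant of the tested members, with 7.95, 11.4 and 9.97 CPM with miR-423-5p, against 4.16, 4.53 and 4.40 CPM in controls. The miR-423-5p libraries spread more widely than the controls but stayed above all of them. The fold was 2.24 (log2 fold change 1.16 ± 0.17, SE).

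Gimap9 (chr6:48676129-48679114, plus strand), between Gimap8 and Gimap4, had 31.2, 33.3 and 34.9 CPM with miR-423-5p, against 21.8, 18.0 and 18.6 CPM in controls. The groups were apart, but the fold, 1.70, was smaller than that of either neighbour (log2 fold change 0.77 ± 0.11, SE).

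Gimap1 (chr6:48739054-48743795, plus strand) was the tested member with the smallest difference and the only one not called. It had 53.9, 42.1 and 46.1 CPM with miR-423-5p, against 42.0, 34.3 and 32.0 CPM in controls. The second miR-423-5p library and the first control library were almost level, and the log2 fold change was 0.39 ± 0.14 (SE), a fold of 1.31. On the deposited FPKM values (read fragments scaled by gene length and library size) the groups overlapped, at 15.3, 12.4 and 12.6 FPKM with miR-423-5p, against 13.2, 10.9 and 10.7 FPKM in controls. DESeq2, and edgeR with the replicate number as a block, did call it higher. An antisense transcript, Gimap1os, overlaps Gimap1 by 2391 bases on the other strand, and it had 0.630, 0.198 and 0.169 CPM with miR-423-5p, against 0.442, 0.521 and 0.492 CPM in controls. The strand setting is not known, so reads of the overlap cannot be told apart.

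Gimap7 (chr6:48718621-48724636, plus strand), between Gimap6 and Gimap1, was barely detected. It had counts of 7, 4 and 0 with miR-423-5p and of 0 in all controls. The filter on low counts left it out, and no fold is given. A readthrough gene, Gm28053, covers the whole of Gimap7 and Gimap1 and 6404 bases of Gimap5 on the same strand, and its own level was 0.438 ± 0.0989 CPM with miR-423-5p and 0.395 ± 0.0929 CPM in controls (SD, n = 3 each).

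Set side by side per length, the 6 tested members fell into 3 tiers. With miR-423-5p, Gimap4 stood at 80.0 ± 7.30 FPKM and Gimap6 at 60.4 ± 2.91 FPKM, and Gimap4 was the higher of this pair in each of the 3 libraries. In controls they were level at 30.0 ± 6.09 FPKM for Gimap4 and 30.6 ± 4.76 FPKM for Gimap6. The middle tier held Gimap9, Gimap1 and Gimap5, at 17.6 ± 0.944, 13.4 ± 1.62 and 11.9 ± 0.339 FPKM with miR-423-5p, and at 11.7 ± 1.03, 11.6 ± 1.38 and 5.90 ± 0.431 FPKM in controls. In controls the levels of Gimap9 and Gimap1 did not differ beyond their spread. Gimap8 came last of the 6, at 2.30 ± 0.459 FPKM with miR-423-5p and 1.16 ± 0.0702 FPKM in controls (SD, n = 3 for each of these values). Among all tested genes ranked by FPKM, Gimap4 lay at percentile 96.6 with miR-423-5p and 89.5 in controls, and Gimap8 at percentile 47.3 with miR-423-5p and 35.5 in controls.

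The make-up of the cluster's messenger RNA shifted toward Gimap4. Gimap4 made 43.0 ± 1.56% of the members' summed FPKM with miR-423-5p and 32.8 ± 1.74% in controls. Gimap1 made 7.27 ± 1.19% with miR-423-5p and 12.8 ± 0.337% in controls, and Gimap9 made 9.47 ± 0.282% with miR-423-5p and 13.0 ± 1.11% in controls (SD, n = 3 each). For these 3 members the groups did not overlap, whereas the shares of Gimap5, Gimap6 and Gimap8 lay within their spread. The ratio of Gimap4 counts to Gimap1 counts, which no scaling between libraries can alter, was 2.88, 4.23 and 3.72 with miR-423-5p, against 1.68, 1.49 and 1.45 in controls. It was thus higher in every miR-423-5p library than in any control, although those libraries differed among themselves.

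**Figure D2:**
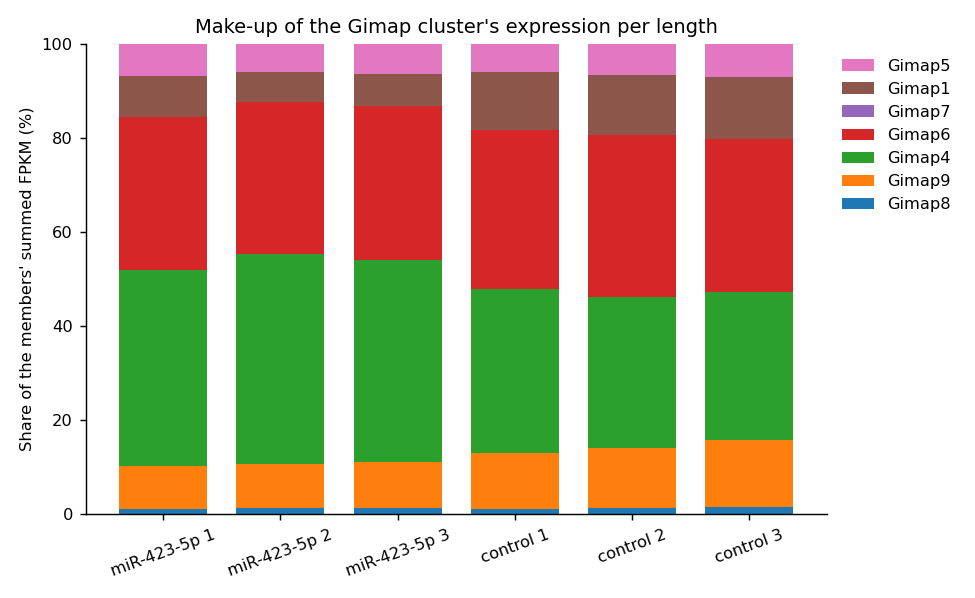
Share of each member in the members' summed FPKM, in percent, for each library, miR-423-5p left of control. The Gimap4 band is wider with miR-423-5p (41.5 to 44.6%) than in controls (31.5 to 34.8%), and the Gimap1 and Gimap9 bands are narrower.

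The genes around the cluster were read in the same fit. Within 250 kb of its ends the table held 27 other genes, of which 15 were tested: 5 were called higher with miR-423-5p and 1 lower, where 9.09% and 7.21% of all tested genes were called. This balance depended on the scaling. With library totals and with limma on log2(FPKM + 0.1), 2 were called higher and 3 lower. With limma on log2(FPKM + 1) and log2(FPKM + 5), 2 were called each way. Over all tested genes those settings also called more lower than higher, 874 higher and 2569 lower with library totals. The neighbours called higher nearest to the members were a pair of long non-coding RNAs at the Gimap5 end. Gm44226 lies on the other strand and ends 20 bases beyond the end of Gimap5. Gm44226 had 8.12, 10.3 and 9.003 CPM with miR-423-5p, against 4.64, 3.81 and 3.42 CPM in controls (log2 fold change 1.21 ± 0.18, SE, edgeR adjusted p = 0.00515). 4833403J16Rik, which overlaps Gm44226 by 649 bases on the opposite strand, had 9.09, 6.26 and 11.7 CPM with miR-423-5p, against 3.14, 3.40 and 2.76 CPM in controls (1.54 ± 0.24, edgeR adjusted p = 0.00698). Their fold changes lay within the range of the members, and both were called in each of the 16 settings. Without strand-aware counting, reads of the overlapping pair could not be told apart.

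Farther on the same side lie Tmem176b and Tmem176a, neighbouring genes for membrane proteins of intracellular compartments, about 80 to 90 kb from the cluster. Tmem176b averaged 680 ± 69.2 CPM with miR-423-5p and 482 ± 61.9 CPM in controls (log2 fold change 0.50 ± 0.12, SE, edgeR adjusted p = 0.0306). Tmem176a averaged 270 ± 24.1 CPM with miR-423-5p and 184 ± 34.6 CPM in controls (SD, n = 3 each; 0.55 ± 0.14, edgeR adjusted p = 0.0394). These calls were fragile, since Tmem176b was called in 2 and Tmem176a in 1 of the 6 fits that left out a library. On the Gimap8 side no gene within 100 kb was called by edgeR with TMM scaling and all libraries: AI854703, Zfp775, Repin1 and Lrrc61 had log2 fold changes of -1.65 ± 0.50, -0.42 ± 0.14, -0.39 ± 0.16 and 0.02 ± 0.16 (SE). Other settings did call some of them lower: Zfp775 with library totals and each limma setting, AI854703 with library totals and limma at a pseudocount of 0.1, and Repin1 without miR-423-5p library 2. Lrrc61 turned negative under several settings (-0.14 with library totals) and was not called in any. The other called neighbours, outside the nearest 10, were Zfp467 (0.67 ± 0.17, edgeR adjusted p = 0.0331) and Zfp862-ps (-0.55 ± 0.12, edgeR adjusted p = 0.0219).

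**Figure D3:**
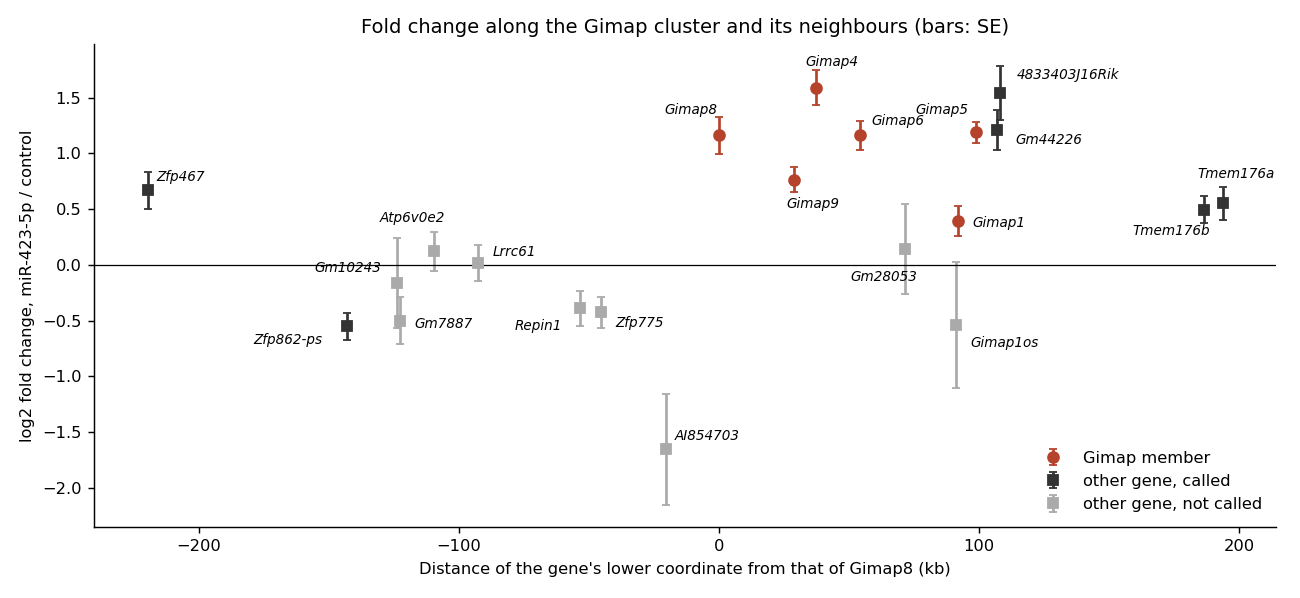
Log2 fold change of miR-423-5p over control libraries (points, bars are SE) for the tested members and the tested genes within 250 kb, against the distance in kb from the lower coordinate of Gimap8. The members and the pair of long non-coding RNAs next to Gimap5 lie above 0, the genes within 100 kb on the Gimap8 side lie at 0.02 or below. Inside the cluster, Gm28053 (0.14 ± 0.40) and Gimap1os (-0.54 ± 0.57, SE) were not called.

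The promoters of the members were read because the genes differed together while varying in size. RefSeq windows of GRCm38.p6, from 250 bases before to 50 after a gene's start, were found for all 7 members, with a second window for Gimap8. Short motifs were sought on both strands: CACCC, the core bound by KLF factors; AGGAAG, bound by ETS factors; AGATAA, bound by GATA factors; TGTGGT, bound by RUNX factors; GTAAACA, bound by FOXO factors; and the interferon-stimulated response element, read as GAAA followed by any pair of bases and then GAAA. The 250 bases before the start are printed for the member with the largest difference (Gimap4), the abundant member on the other strand (Gimap6), the member with the smallest difference (Gimap1) and Gimap5, with matches to the KLF, ETS, GATA or RUNX motif in capitals. Matches of different motifs were allowed to overlap. The printed stretches lie at chr6:48684328-48684577 (plus strand), chr6:48708245-48708494 (minus strand), chr6:48738797-48739046 (plus strand) and chr6:48745947-48746196 (plus strand).
Gimap4 promoter: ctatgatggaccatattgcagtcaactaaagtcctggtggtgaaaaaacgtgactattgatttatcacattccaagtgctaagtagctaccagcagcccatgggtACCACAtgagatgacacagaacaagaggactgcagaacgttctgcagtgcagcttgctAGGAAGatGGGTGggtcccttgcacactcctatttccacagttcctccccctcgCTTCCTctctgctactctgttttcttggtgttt
Gimap6 promoter: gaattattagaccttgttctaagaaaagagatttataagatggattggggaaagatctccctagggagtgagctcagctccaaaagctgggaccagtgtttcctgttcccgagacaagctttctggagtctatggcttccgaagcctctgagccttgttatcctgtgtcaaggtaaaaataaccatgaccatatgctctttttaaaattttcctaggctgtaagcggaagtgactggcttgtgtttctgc
Gimap1 promoter: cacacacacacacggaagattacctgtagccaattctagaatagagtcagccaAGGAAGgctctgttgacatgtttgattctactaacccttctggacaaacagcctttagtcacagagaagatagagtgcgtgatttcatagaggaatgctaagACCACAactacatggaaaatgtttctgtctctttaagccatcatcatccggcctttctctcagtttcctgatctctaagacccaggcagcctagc
Gimap5 promoter: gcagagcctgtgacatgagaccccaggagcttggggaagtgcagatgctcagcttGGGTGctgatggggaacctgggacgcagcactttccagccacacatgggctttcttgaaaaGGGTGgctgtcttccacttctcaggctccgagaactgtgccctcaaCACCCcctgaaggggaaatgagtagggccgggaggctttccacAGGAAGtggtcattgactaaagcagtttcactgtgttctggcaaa
AGGAAG, the ETS motif sought, was present in the windows of 6 of the 7 members, all but Gimap6. For Gimap8 only the second window held it. This motif was held by 35.4% of 32851 mouse promoter windows, a share of single windows and not of genes. Only the exact letters given were sought, so other forms, such as cggaag in the printed Gimap6 bases, were not counted. The KLF motif was present in 4 members (Gimap4, Gimap5, Gimap8 and Gimap9), where 57.5% of all windows held it. The RUNX motif was present in 3 (Gimap1, Gimap4 and Gimap7), where 16.8% of all windows held it. No member held AGATAA, the GATA motif sought (11.2% of all windows), the FOXO motif GTAAACA (3.65%) or the interferon-stimulated response element as read here (3.44%). The printed bases of Gimap4 hold ttatca and those of Gimap1 agatag, near forms of the GATA motif that were not counted. The 250 printed bases of Gimap6 hold no capital, which shows only that the exact letters were absent. All matches are of letters, not measured binding, and their part in the differences was not tested. The windows had 43.3 to 57.3% G and C, where the median window had 52.7%, and 2 to 8 CpG dinucleotides, where the median was 7.

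Genes tied to the members by function or cell type were set beside them, from lists drawn up with earlier results of these libraries known. For every list below, the share over all tested genes in the main edgeR fit was 9.09% called higher and 7.21% lower, with a median log2 fold change of -0.02. Other settings had other shares over the same genes. With library totals 874 were called higher and 2569 lower, and with limma 753 to 770 higher and 2363 to 2459 lower. A tilt toward lower calls in a list under those settings is therefore not particular to the list. Of 18 endothelial identity genes, 14 were called higher with miR-423-5p and 0 lower, with a median log2 fold change of 0.81. Mmrn2 alone had a negative log2 fold change (-0.92 ± 0.44, SE, not called). It had 0.243, 0.172 and 0.186 CPM with miR-423-5p, against 0.427, 0.384 and 0.328 CPM in controls. Pecam1, an adhesion molecule of endothelial junctions, averaged 1045 ± 55.4 CPM with miR-423-5p and 515 ± 42.5 CPM in controls, and Nos3, the endothelial nitric oxide synthase, averaged 1979 ± 70.1 CPM with miR-423-5p and 861 ± 78.7 CPM in controls (SD, n = 3 each; edgeR adjusted p = 0.00106 and 0.000815). The summed endothelial list was thus 1.85-fold as high with miR-423-5p, beside 2.24-fold for the Gimap members. Taken as a percentage of that sum, the members came to 6.61, 7.10 and 7.21% with miR-423-5p, against 6.41, 5.41 and 5.35% in controls, so the groups were apart but the first library of each lay close together. Whether the Gimap difference is part of the endothelial one was not tested.

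Of the list of sinusoidal endothelial and Gata4 genes tied to Gimap5, 6 of 14 were tested and 4 were called higher, with 0 lower. The genes not tested were near 0 or uneven. Clec4g had 0 to 2 counts with miR-423-5p and 0 to 6 in controls, and Clec1b had 0 to 17 and 8 to 12. Rspo3 had 0 counts in every miR-423-5p library and 4 to 28 in controls. Mrc1, Fcgr2b and Cd36 had their highest counts in control library 3 (92, 242 and 475), and Wnt2 had no row. Lyve1, a hyaluronan receptor of lymphatic and sinusoidal endothelium, averaged 380 ± 63.1 CPM with miR-423-5p and 113 ± 29.0 CPM in controls, and Stab1, a scavenger receptor, averaged 174 ± 8.95 CPM with miR-423-5p and 84.8 ± 2.65 CPM in controls (SD, n = 3 each; edgeR adjusted p = 0.00225 and 0.000778). Cd34 and Flt4 were the others called. The list did not sort its genes by the direction of their tie to Gimap5, so no shared direction is read from these calls. Maf, a transcription factor on the same list, had 0.0573, 0.290 and 0.711 CPM with miR-423-5p, against 1.31, 1.41 and 5.11 CPM in controls, with no overlap and no call (log2 fold change -2.90 ± 0.87, SE, edgeR adjusted p = 0.0605). DESeq2 called 2 of the list lower, and edgeR with library totals or with the replicate block called 1 lower. Gata4, the transcription factor that Gimap5 sustains in liver endothelium of mice, had 0 to 7 counts with miR-423-5p and 0 to 12 in controls and was not tested.

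The partners through which Gimap proteins are thought to act were read next. Of 10 tested BCL2 family genes, 3 were called higher and 1 lower (median log2 fold change 0.22). Bcl2 and Bak1 were called higher, with log2 fold changes of 0.49 ± 0.11 and 0.50 ± 0.10 (SE, edgeR adjusted p = 0.0236 and 0.0165). The cell death activator Bcl2l11 (Bim) averaged 73.8 ± 9.88 CPM with miR-423-5p and 35.3 ± 4.31 CPM in controls, and Bbc3 (Puma), also an activator, averaged 28.2 ± 1.68 CPM with miR-423-5p and 56.2 ± 14.2 CPM in controls (SD, n = 3 each; edgeR adjusted p = 0.00262 and 0.0121). Of 14 ATG8 and autophagy genes, 3 were called higher and 1 lower (median 0.09). With library totals 2 were called higher and 3 lower, and with each limma setting 1 higher and 3 lower. Gabarapl2, the ATG8 protein that Gimap6 binds, was not called, at a log2 fold change of 0.21 with an SE of 0.07 (adjusted p = 0.0813 by edgeR). Leaving out 1 library at a time gave 1 to 5 called genes in either list, with 1 in the BCL2 list without control 1, control 2 or miR-423-5p library 3, and 1 in the autophagy list without any of these or miR-423-5p library 1.

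Among 10 GSK3 and NFAT genes, through which Gimap5 is known to act in T cells, 0 were called by edgeR and 0 by DESeq2, while 1 had an unadjusted p under 0.05 (median log2 fold change -0.01). Of 18 tested endothelial transcription factors, 9 were called higher and 1 lower (median 0.43). Klf2, a factor induced by blood flow, averaged 136 ± 11.8 CPM with miR-423-5p and 42.9 ± 9.07 CPM in controls (SD, n = 3 each; log2 fold change 1.66 ± 0.16, SE, edgeR adjusted p = 0.00124). With library totals and with each limma setting, 5 were called higher and 2 lower. Nr2f2, a factor of venous endothelium, was the one called lower, at -0.70 ± 0.13 (SE, edgeR adjusted p = 0.0127). The number called in this list fell to 4 without control 1, to 5 without control 2 or miR-423-5p library 3 and to 6 without control 3.

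Gimap transcripts are abundant in lymphocytes, so their markers were read in the same libraries. Of 17 T, NK and B cell markers, 6, among them Cd3d, Cd3e and Cd8a, had no row in the table and 4 were tested. By edgeR 0 were called and 0 had an unadjusted p under 0.05, while DESeq2 called 2 lower. Cd3g had counts of 5, 0 and 0 with miR-423-5p and 0 in all controls, and Cd4 had 5, 0 and 0 with miR-423-5p, against 0, 5 and 6 in controls. Ptprc (CD45), found on all leukocytes, had 4, 6 and 0 counts with miR-423-5p, against 0, 0 and 513 in controls. The list summed to 12.5 to 14.1 CPM with miR-423-5p and 12.9 to 22.9 CPM in controls. Lck, a T cell kinase, stood at 9.56 ± 0.209 CPM with miR-423-5p and 10.3 ± 0.584 CPM in controls (SD, n = 3 each). The members summed to 540 to 568 CPM with miR-423-5p in these libraries, and whether any of that came from lymphocytes was not tested.

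Of 6 tested myeloid markers, 0 were called by edgeR, 5 had an unadjusted p under 0.05, and DESeq2 called 1 higher and 1 lower. Adgre1 (F4/80), a macrophage marker that the filter on low counts left out, had 25.1 CPM in control library 3, 0 in every miR-423-5p library and at most 0.0590 CPM in the other controls. Of 9 tested fibroblast and pericyte markers, 0 were called higher and 4 lower, namely Col1a1, Col1a2, Cspg4 and Lum. Col1a1 had 4.31, 4.28 and 2.79 CPM with miR-423-5p, against 50.5, 59.0 and 24.3 CPM in controls. The list summed to 21.5 to 41.9 CPM with miR-423-5p and 72.5 to 152 CPM in controls, with 0 of its 10 genes at 0 throughout. These lower levels run alongside the Gimap difference, and their part in it was not tested.

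**Figure D4:**
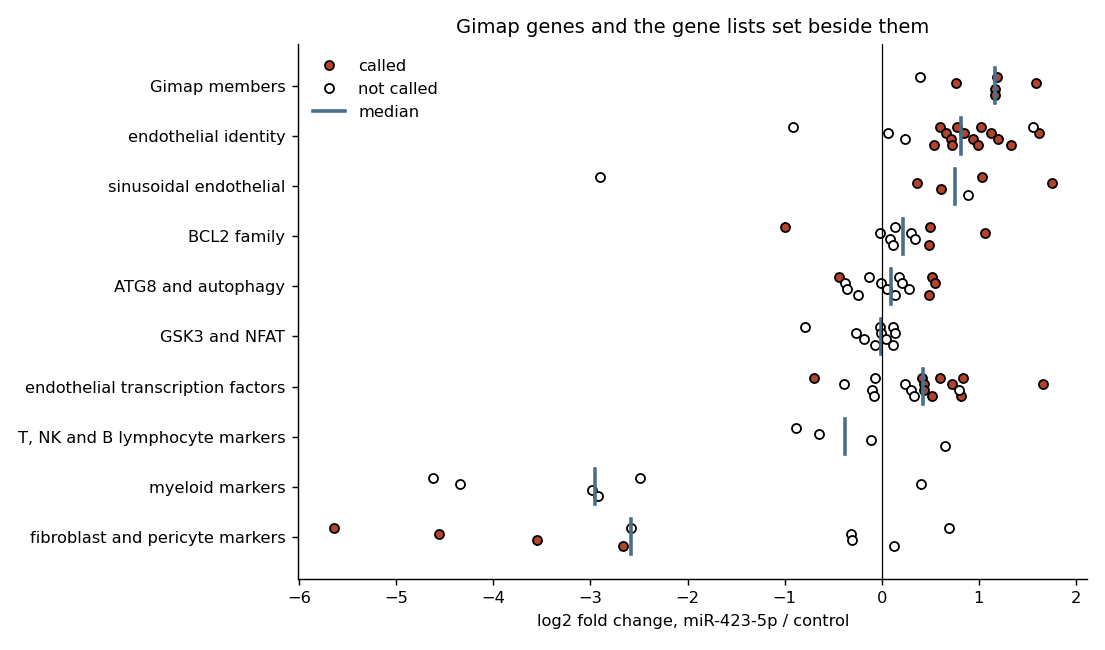
Log2 fold change of miR-423-5p over control libraries for each tested gene (points, filled where called by edgeR) of the Gimap members and of the 9 lists, with the median of each (blue bar). The 6 members lie between 0.39 and 1.59, the endothelial identity genes centre on 0.81, and the GSK3 and NFAT genes centre on -0.01.

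The genes whose levels followed the members most closely were sought over the 6 libraries by Pearson's correlation of log2 CPM with the members' mean profile, among 7767 genes with 5 FPKM or more. The points share their libraries and the group difference, so the correlations are descriptive. Bcl6b, an endothelial transcriptional repressor, came first (r = 0.998), at 481, 505 and 494 CPM with miR-423-5p, against 260, 217 and 193 CPM in controls. The groups were far apart, and control 1 was the highest control, as for Gimap4 and Gimap6. Pef1, Kank3, Tmc8 and Laptm4b followed, each at r = 0.997. They differed widely in size: Kank3 had a log2 fold change of 1.41 ± 0.15 and Pef1 one of 0.18 ± 0.09 (SE). Of the members themselves, Gimap6 (r = 0.998), Gimap4 (0.997), Gimap5 (0.995) and Gimap9 (0.992) kept close to the profile they help to define, while Gimap8 (0.933) and Gimap1 (0.862) kept less close. In the profile, in SDs of log2 CPM averaged over members, the miR-423-5p libraries lay at 0.83 to 0.90, while control 1 lay at -0.51 and controls 2 and 3 at -0.97 and -1.10, so the controls were less alike.

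The sizes depended on the scaling and on the pseudocount. The TMM factors split by group, at 0.935 to 0.966 with miR-423-5p and 1.051 to 1.065 in controls. By summed deposited FPKM the members were 2.04-fold as high with miR-423-5p, beside 2.24-fold by TMM-adjusted CPM. With counts scaled to library totals alone, the median of all tested genes shifted to -0.18, and the members' median was 1.005. Relative to all genes the members thus stood as high as with TMM scaling. On log2(FPKM + pseudocount) values with limma, where a pseudocount shrinks the change of low genes, Gimap8 had 0.91, 0.60 and 0.24 with pseudocounts of 0.1, 1 and 5, while Gimap4 had 1.43, 1.40 and 1.29. Among the 6 tested members, Gimap4 had the largest difference and Gimap1 the smallest in each of the 16 settings. Gimap7 was fitted with DESeq2 and without the filter on low counts, where it was not called and where its fitted fold against controls at 0 cannot be read.

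**Figure D5:**
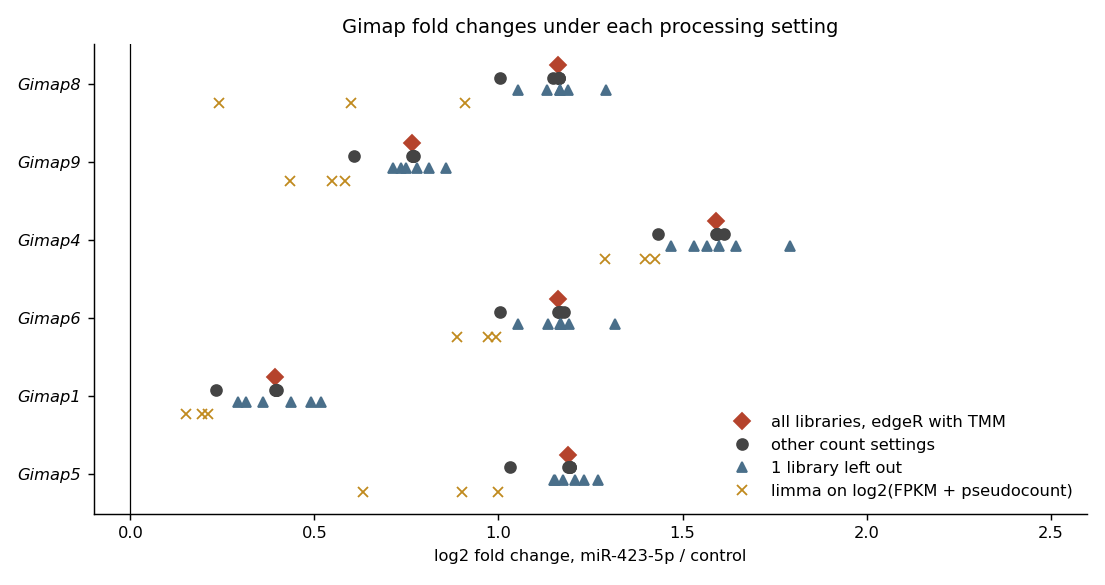
Log2 fold change of each of the 6 tested members (Gimap7 is left out) under each processing setting: all libraries with edgeR and TMM scaling (diamonds), other count settings (circles), 1 library left out (triangles) and limma on FPKM (crosses). All values are above 0; of these 6, Gimap4 is farthest right and Gimap1 farthest left throughout, and the crosses of Gimap8 spread most.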

How the data were processed

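Polyadenylated RNA was sequenced as pairs of 150-base reads from strand-marking libraries, per the labels' protocols. The authors deposited a table of 30768 genes with raw read counts and FPKM values of each library, per the file headers. The submitters' processing notes name cutadapt 1.9, HISAT2 2.2.1, StringTie 2.1.6, DESeq2, edgeR and GRCm38 with no role; the sources used here do not give counting or strand settings, which leaves overlapping and near-identical genes uncertain.

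The members, gene lists and motifs were chosen with earlier results of these data known. The counts entered edgeR 4.0.16 under R 4.3.3 (filterByExpr, TMM, glmQLFit, glmQLFTest) with the group as only term, over 18103 genes, with Benjamini-Hochberg adjustment at 0.05. Each SE is the absolute log2 fold change divided by the square root of F. Genes were named from the members and other Gimap rows, the 10 nearest tested neighbours and the 5 genes most like the members. Others came from the 3 genes of smallest p per list and marker genes with 10 counts or more, not all of them named. Genes outside this rule (Cldn5, Mmrn2, Bcl2, Gabarapl2, Nr2f2, Flt4, Maf, Gata4, Clec4g, Clec1b, Rspo3, Mrc1, Fcgr2b, Cd36, Wnt2, Cd3g, Cd4, Zfp467 and Zfp862-ps) were named after their values were seen. Steps were tested on simulated counts with known changes, where edgeR called 66% of 2-fold and 87% of 4-fold changes in the right direction. Of its calls there, 6.71% were false. Alternatives were DESeq2 1.42.0, its size factors, library totals, no filter, a replicate block, each library left out, robust dispersion, neighbour windows of 100 and 500 kb, and limma 3.58.1 on log2 FPKM with pseudocounts of 0.1, 1 and 5. Scripts ran on Python 3.11.15. In a chi-square test every pair of libraries differed by more than sampling noise.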

Additional observations from a re-analysis of the deposited data

How the results depend on the processing

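The count of members called higher was 5 or 6 in all 15 alternatives, and the fold changes of the 6 tested members stayed above 0 in all of them. Balances of calls did turn: neighbours from 5 higher and 1 lower to 2 and 3, and autophagy genes from 3 and 1 to 2 and 3, both with library totals. The members' median log2 fold change was 1.005 with library totals, 0.95, 0.75 and 0.53 with limma on log2 FPKM plus 0.1, 1 and 5, and 1.10 to 1.20 with 1 library left out. Over all tested genes, calls higher and lower were 1646 and 1305, against 874 and 2569 with library totals, 1093 and 759 without the filter, 2181 and 1839 with DESeq2, and 570 to 2386 and 372 to 1836 with 1 library left out. With limma on log2 FPKM, 753 to 770 were higher and 2363 to 2459 lower. Replicate numbers did not pair the libraries (r of same-numbered deviations -0.0264 to 0.0749). The replicate block called 6 members, Gimap1 included, and 1369 genes higher and 1042 lower.

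Of the neighbours, 3 were called without the filter and 2 to 7 with 1 library left out. The BCL2 list had 2 calls with each limma setting and 1 to 5 with 1 library left out, the autophagy list 1 to 5, and the transcription factors 4 to 10. The GSK3 and NFAT list had 1 call, lower, with library totals and with limma at 0.1 and 1, and 0 to 1 with 1 library left out. DESeq2 called 2 lymphocyte and 2 myeloid markers, the block 1 myeloid marker, and fits without 1 library 0 to 1. Limma at 5 called 7 fibroblast and pericyte markers. Endothelial identity gave 10 to 15 calls, sinusoidal genes 3 to 4 and fibroblast markers 3 to 5 with 1 library left out. The causes were not tested. With 3 libraries a group, precision is set by their spread for all members but Gimap7, where counts of 0 to 7 set it.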
